A study of Homo sapiens with 8 samples.

Results

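Eicosanoids are signaling lipids made from arachidonic acid, and 8 genes of their synthesis and breakdown were followed in MCF10A and DCIS.COM breast epithelial cells that carried the lncRNA *MALINC1* on a vector. *PTGES*, the inducible prostaglandin E synthase, was 5.24-fold lower with pLOC-MALINC1 than with pLOC-empty in DCIS.COM and only 1.20-fold lower in MCF10A. *HPGD*, the enzyme that inactivates prostaglandin E2, was 3.04-fold lower with pLOC-MALINC1 in DCIS.COM and 1.75-fold higher in MCF10A. *PTGS1*, the constitutive cyclooxygenase COX-1, was 2.72-fold higher with pLOC-MALINC1 in MCF10A. *ALOX5AP*, the activating partner of 5-lipoxygenase, was lower with pLOC-MALINC1 in both lines. In DCIS.COM that rests on only 12 reads with pLOC-empty and 4 with pLOC-MALINC1. The largest contrast lay between the lines, since *PTGES* was 21.2-fold lower in DCIS.COM than in MCF10A with pLOC-empty and 92.6-fold lower with pLOC-MALINC1.

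The 8 genes (*ALOX5AP*, *PTGS1*, *PTGS2*, *PTGES*, *PTGES2*, *PTGES3*, *PLA2G4A* and *HPGD*) were chosen by symbol as eicosanoid genes with earlier results of these libraries known, and all 8 are among the 13842 genes tested. Which of their values led to that choice is not recorded, so every level and fold change of these 8 genes is a description with no test. RNA-seq had been run on 8 libraries, with 2 in each of 4 groups, namely MCF10A pLOC-empty, MCF10A pLOC-MALINC1, DCIS.COM pLOC-empty and DCIS.COM pLOC-MALINC1. MCF10A is a non-tumorigenic human breast epithelial line, and DCIS.COM is a line of the same lineage that forms lesions like ductal carcinoma in situ. All cells were stable transductants selected with blasticidin, so the controls carry the empty vector and went through the selection as well. The lines were grown in different media, with epidermal growth factor, hydrocortisone, insulin and cholera toxin given to MCF10A beside the horse serum that both lines received, so line and medium cannot be told apart. The labels do not say whether the 2 libraries of a group came from separate cultures or transductions, so p-values measure only the spread between these libraries.

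Phospholipase A2 frees arachidonic acid from membrane lipids, and the cyclooxygenases turn it into prostaglandin H2, from which terminal synthases make prostaglandin E2 and the other prostanoids. Lipoxygenases turn the same acid into leukotrienes and hydroxy acids. Prostaglandin E2 leaves the cell, signals through its receptors and is taken up again and inactivated by oxidation. In breast epithelium the pathway is best known for COX-2, whose product prostaglandin E2 acts on growth, stroma and local estrogen synthesis.

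The sequence before the start site is shown for *PTGES*, *HPGD* and *PTGS1*, which differed by over 2-fold between the vectors in 1 of the lines, and beside them for *PTGS2* and *PTGES3*, which make the same products as *PTGS1* and *PTGES* and differed by less than that in both lines. Each run is the 250 bases before the first start that RefSeq lists (build GRCh38.p14, with 2 starts listed for *PTGS1* and *HPGD*), read 5′ to 3′ on the gene's strand. Capitals mark matches on either strand to a TATA box (TATAAA), to the AP-1 site (TGANTCA), to the half-site for cAMP response (TGACG) or to the Sp1 box (GGGCGG). The windows are chr9:129753043-129753292 (*PTGES*, minus strand), chr12:56688285-56688534 (*PTGES3*, minus strand), chr9:122370283-122370532 (*PTGS1*, plus strand), chr1:186680424-186680673 (*PTGS2*, minus strand) and chr4:174522489-174522738 (*HPGD*, minus strand).
*PTGES*: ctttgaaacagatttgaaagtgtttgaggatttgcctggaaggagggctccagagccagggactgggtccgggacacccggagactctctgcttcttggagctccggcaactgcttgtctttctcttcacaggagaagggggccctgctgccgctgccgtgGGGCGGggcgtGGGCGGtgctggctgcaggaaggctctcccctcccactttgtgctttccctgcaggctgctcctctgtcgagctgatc
*PTGES3*: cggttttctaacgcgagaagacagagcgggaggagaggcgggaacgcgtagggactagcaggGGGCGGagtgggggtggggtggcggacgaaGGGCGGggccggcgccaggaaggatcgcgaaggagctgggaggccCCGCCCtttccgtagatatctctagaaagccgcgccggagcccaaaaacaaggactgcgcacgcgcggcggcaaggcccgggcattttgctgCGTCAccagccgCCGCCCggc
*PTGS1*: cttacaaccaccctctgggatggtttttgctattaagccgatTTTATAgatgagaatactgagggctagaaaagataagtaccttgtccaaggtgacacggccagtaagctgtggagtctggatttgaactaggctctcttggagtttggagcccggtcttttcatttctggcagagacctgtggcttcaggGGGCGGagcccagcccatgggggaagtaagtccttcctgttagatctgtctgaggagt
*PTGS2*: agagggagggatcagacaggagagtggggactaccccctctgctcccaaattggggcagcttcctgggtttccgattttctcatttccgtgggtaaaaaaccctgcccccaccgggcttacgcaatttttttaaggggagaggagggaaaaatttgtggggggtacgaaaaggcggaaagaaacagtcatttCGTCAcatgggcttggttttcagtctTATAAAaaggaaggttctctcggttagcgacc
*HPGD*: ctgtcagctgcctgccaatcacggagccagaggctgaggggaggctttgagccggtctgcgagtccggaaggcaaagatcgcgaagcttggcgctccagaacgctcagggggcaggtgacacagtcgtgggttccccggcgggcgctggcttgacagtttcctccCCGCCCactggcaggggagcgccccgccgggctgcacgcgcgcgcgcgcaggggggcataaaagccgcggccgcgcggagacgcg

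*PTGES* and *PTGES3* held 2 and 4 Sp1 boxes and no TATA box, and *PTGES3* also held 1 half-site for cAMP response. *PTGS2* held a TATA box that begins 32 bases before the start and a half-site that begins 58 bases before it. *PTGS1* held 1 Sp1 box 58 bases before the start and the TATA letters on the other strand 208 bases before it. *HPGD* held 1 Sp1 box, 85 bases before the start. No match to the AP-1 letters stood in any of the 12 windows of the 8 members. Of 35116 promoter windows of this length in the RefSeq table, 10.7% held the TATA letters, 6.57% the AP-1 letters, 21.2% the half-site and 42.6% the Sp1 box. These matches describe the letters in the windows and say nothing of which factor binds there.

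In GRCh37 coordinates, the build of the counts, *PTGES* lies on chromosome 9 from 132500610 to 132515321 (minus strand), *HPGD* on chromosome 4 from 175411326 to 175444305 (minus strand), *PTGS1* on chromosome 9 from 125132809 to 125157982 (plus strand) and *ALOX5AP* on chromosome 13 from 31287615 to 31338563 (plus strand). All 8 are protein-coding genes in GENCODE. Of the exon bases of *HPGD*, 5.68% overlap a lncRNA on the opposite strand, and of those of *PTGS2*, 3.99% overlap the antisense gene *PACERR*. The strand setting of the counting is not given in the sources used here, so reads in those parts cannot be told apart. *PTGES3* has 5 named processed pseudogenes, with which its reads can be shared.

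The libraries held 20604377 to 37550457 reads counted on genes, and the RNAs *RN7SL1* and *RN7SL2* took 8.22% to 15.7% of them. *MALINC1* itself stood at 1.25 CPM (read counts scaled to library size, SD 0.357, n = 2) with pLOC-empty and 12.5 CPM (SD 1.05) with pLOC-MALINC1 in MCF10A, and at 1.25 CPM (SD 0.146) and 21.8 CPM (SD 3.76) in DCIS.COM. All 9 basal and luminal epithelial markers were found, with a summed level of 20619 to 28804 CPM in the MCF10A libraries and 7790 to 8515 CPM in those of DCIS.COM. Of 10 leukocyte markers 3 were measured, and their sum was 121 to 131 CPM in MCF10A and 10.7 to 18.5 CPM in DCIS.COM, most of it *LCP1*. The other 7, the leukocyte marker *PTPRC* included, were not analysed here. *COL1A1*, the 1 of 6 fibroblast markers measured, stood in MCF10A at 15.1 and 15.9 CPM with pLOC-empty and at 6.61 and 7.38 CPM with pLOC-MALINC1, and in DCIS.COM at 1.91 and 2.01 CPM and at 1.51 and 1.60 CPM. *PECAM1*, the 1 of 4 endothelial markers measured, stood at 0.680 to 1.03 CPM in MCF10A, at 6.06 and 7.21 CPM in DCIS.COM pLOC-empty and at 0.0874 and 0.177 CPM in DCIS.COM pLOC-MALINC1. The libraries come from cultured epithelial lines, so these marker levels are not counts of leukocytes, fibroblasts or endothelial cells. In bulk RNA, fewer cells that express a gene and less of its RNA per cell cannot be told apart.

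The response to pLOC-MALINC1 was described in each line, with a log2 fold change and its standard error (SE) from limma. A gene counts as past the thresholds at an adjusted p under 0.01 and a change of more than 2-fold. In MCF10A, *PTGS1* was past the thresholds on the higher side and *ALOX5AP* on the lower side, that is 1 of 8 members each, where 2.99% of all genes were called higher and 2.51% lower. In DCIS.COM, 3 of 8 members (*PTGES*, *HPGD* and *ALOX5AP*) were past them, all lower, where 1.44% of all genes were called higher and 3.08% lower. Over the members the median log2 fold change was 0.34 in MCF10A, where that of all genes was 0.00, and it was -0.17 in DCIS.COM, where that of all genes was 0.01. Since the members were chosen with earlier results of these libraries known, nothing is read from these counts. At an adjusted p under 0.05 with no fold threshold, 8 members passed in MCF10A and 5 in DCIS.COM, where 53.0% and 46.1% of all genes did.

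**Figure D1:**
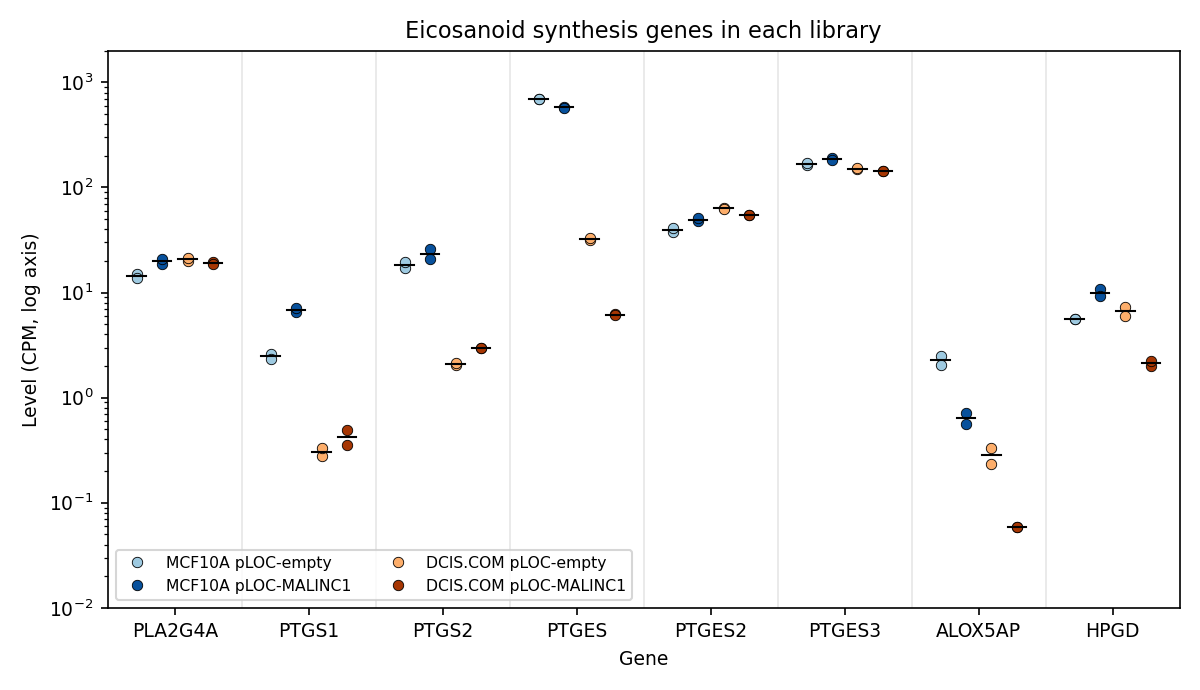
Level of the 8 genes in each library, in CPM on a log axis, with 1 point per library, 4 groups by colour and a bar at the mean of each pair. *PTGES* spans from a mean of 691 CPM in MCF10A pLOC-empty to 6.16 CPM in DCIS.COM pLOC-MALINC1, and *PTGES3* lies between 142 and 192 CPM.

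Arachidonic acid release was represented by *PLA2G4A*, the cytosolic phospholipase A2 that starts the pathway. It was read at 14.9 and 13.9 CPM in the MCF10A pLOC-empty libraries and at 18.7 and 20.9 CPM with pLOC-MALINC1. The DCIS.COM libraries held 20.0 and 21.4 CPM with pLOC-empty and 19.4 and 18.7 CPM with pLOC-MALINC1. The MCF10A controls were thus the low group, and the MCF10A pLOC-MALINC1 pair overlapped both DCIS.COM pairs. The log2 fold change was 0.46 (SE 0.08) in MCF10A and -0.12 (SE 0.08) in DCIS.COM.

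The cyclooxygenases *PTGS1* (COX-1) and *PTGS2* (COX-2) carry out the committed step to prostaglandin H2. *PTGS1* was read at 2.59 and 2.35 CPM with pLOC-empty and at 6.58 and 7.06 CPM with pLOC-MALINC1 in the MCF10A libraries. That is a difference of 1.44 on the log2 scale (SE 0.21). In DCIS.COM it stood at 0.280 and 0.334 CPM with pLOC-empty and at 0.495 and 0.355 CPM with pLOC-MALINC1, which is 6 to 17 reads per library. The pairs did not overlap in either line, but in DCIS.COM the ratio of reads was 1.39 with a 95% counting interval of 0.699 to 2.91, which includes no change.

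*PTGS2* was read at 17.2 and 19.3 CPM with pLOC-empty and at 26.0 and 20.9 CPM with pLOC-MALINC1 in the MCF10A libraries. The DCIS.COM libraries held 2.05 and 2.15 CPM with pLOC-empty and 2.97 and 2.96 CPM with pLOC-MALINC1. The pLOC-MALINC1 pair was the higher one in each line, by a log2 fold change of 0.35 (SE 0.12) in MCF10A and 0.48 (SE 0.12) in DCIS.COM, both under 2-fold. Divided by exon length, *PTGS2* made up 75.7% and 80.7% of the sum of both cyclooxygenases in the MCF10A pLOC-MALINC1 libraries and 86.4% to 89.8% in the other 6 libraries. *PTGS2* was therefore the main cyclooxygenase transcript in every library. Its share was lowest in the libraries where *PTGS1* was highest, which is partly built in, as *PTGS1* is part of the sum. For DCIS.COM the shares rest on 6 to 17 reads of *PTGS1* per library.

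The 3 prostaglandin E synthases behaved in different ways. *PTGES* encodes the microsomal enzyme that is induced together with COX-2. It was read at 688 and 694 CPM with pLOC-empty and at 584 and 570 CPM with pLOC-MALINC1 in the MCF10A libraries, where its log2 fold change was -0.26 (SE 0.04). In DCIS.COM it was read at 31.9 and 33.3 CPM with pLOC-empty and at 6.20 and 6.12 CPM with pLOC-MALINC1, where its log2 fold change was -2.39 (SE 0.04). The 4 pairs stood apart without overlap, and the replicates of each pair differed far less than the pairs did. The response in DCIS.COM minus that in MCF10A was -2.13 (SE 0.05) on the log2 scale.

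*PTGES2* encodes a second microsomal synthase that is constitutively expressed. It was read at 37.4 and 41.4 CPM with pLOC-empty and 48.0 and 50.9 CPM with pLOC-MALINC1 in the MCF10A libraries. In DCIS.COM it stood at 64.4 and 62.3 CPM with pLOC-empty and at 54.1 and 54.4 CPM with pLOC-MALINC1. The order of the groups thus turned between the lines, with log2 fold changes of 0.33 (SE 0.05) and -0.22 (SE 0.05). *PTGES3*, the cytosolic synthase that also serves as a co-chaperone of HSP90, ranged only from 142 to 192 CPM over all libraries. Its log2 fold change was 0.16 (SE 0.04) in MCF10A and -0.09 (SE 0.04) in DCIS.COM, and the latter was 0.03 when libraries were scaled by total reads alone.

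Per kilobase of exon, *PTGES* was the most abundant of these 3 transcripts in MCF10A pLOC-empty, at 365 CPM per kb (SD 2.38) against 49.2 (SD 1.31) for *PTGES3* and 6.47 (SD 0.462) for *PTGES2*. With pLOC-MALINC1 the levels in MCF10A were 305, 55.1 and 8.12 CPM per kb, in the same order. In DCIS.COM pLOC-empty *PTGES* stood at 17.2 CPM per kb (SD 0.513), below *PTGES3* at 44.5 and above *PTGES2* at 10.4. In DCIS.COM pLOC-MALINC1 it was the lowest, at 3.26 CPM per kb (SD 0.0320) against 41.9 for *PTGES3* and 8.92 for *PTGES2*. Among the 3 synthase transcripts *PTGES* thus went from first to last over the 4 groups, by levels that did not overlap in any group. These lengths are those of all exons in GENCODE (6084 nt over 21 transcripts for *PTGES2*, 1891 nt over 2 for *PTGES*), while the reads were counted on UCSC genes, and before division by length *PTGES2* stood above *PTGES* in DCIS.COM pLOC-empty (63.4 against 32.6 CPM).

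**Figure D2:**
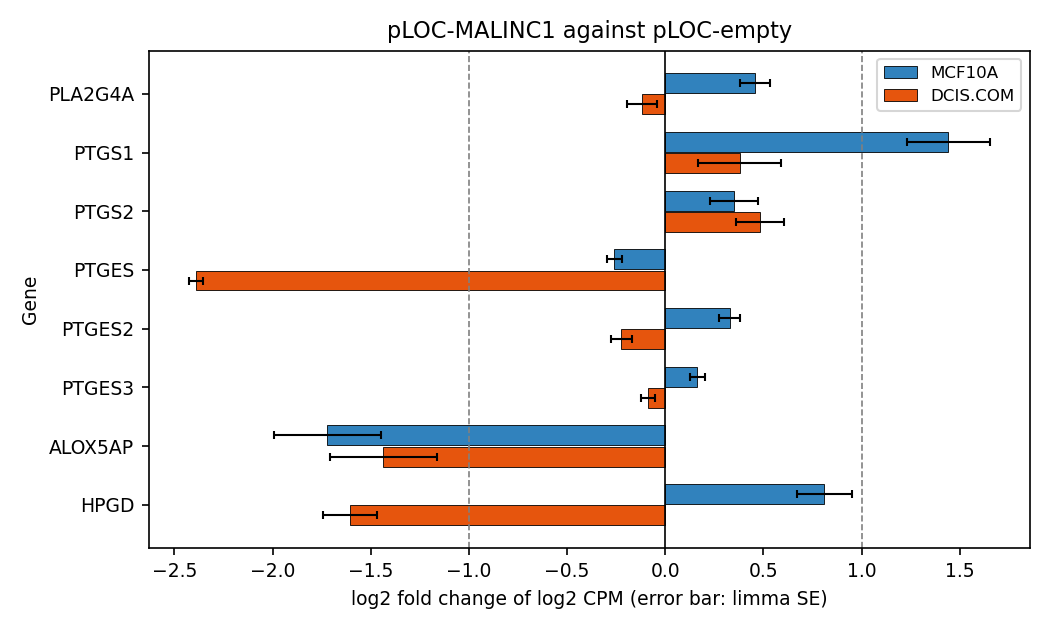
Log2 fold change of pLOC-MALINC1 over pLOC-empty (bars) for each of the 8 genes in MCF10A (blue) and DCIS.COM (orange), with limma's SE as error bars and dashed lines at 2-fold. *HPGD* points to opposite sides in the lines (0.81 and -1.61), and *PTGES* is lower by 2.39 in DCIS.COM alone beyond 2-fold.

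On the leukotriene branch, *ALOX5AP* encodes the membrane protein that presents arachidonic acid to 5-lipoxygenase. It was read at 2.48 and 2.04 CPM (72 and 46 reads) with pLOC-empty and at 0.557 and 0.718 CPM (20 and 19 reads) with pLOC-MALINC1 in the MCF10A libraries, where its log2 fold change was -1.72 (SE 0.27). In DCIS.COM it rested on few reads, with 5 and 7 reads in the pLOC-empty libraries and 2 reads in each pLOC-MALINC1 library. The ratio of reads there was 4.82-fold lower with pLOC-MALINC1, with a 95% counting interval of 1.46 to 20.5, and the fitted log2 fold change of -1.44 (SE 0.27) depends on the prior count in the deposited values. Without DCIS.COM pLOC-empty replicate 2 it was -1.23 and no longer past the thresholds. *ALOX5AP* is typical of leukocytes, and the summed level of the 3 leukocyte markers was 131 CPM in both MCF10A pLOC-empty libraries, 121 and 124 CPM with pLOC-MALINC1, 10.7 and 11.7 CPM in DCIS.COM pLOC-empty and 17.2 and 18.5 CPM with pLOC-MALINC1. Their part in the level of *ALOX5AP* was not tested. 5-lipoxygenase itself (*ALOX5*) was not analysed here.

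Breakdown of prostaglandin E2 was represented by *HPGD*, the dehydrogenase that oxidizes it and that is often lost in carcinomas. *HPGD* was read at 5.66 and 5.58 CPM with pLOC-empty and at 10.7 and 9.18 CPM with pLOC-MALINC1 in the MCF10A libraries, which lay 0.81 higher on the log2 scale (SE 0.14). In DCIS.COM it was read at 7.32 and 5.97 CPM with pLOC-empty and at 2.01 and 2.25 CPM with pLOC-MALINC1, where its log2 fold change was -1.61 (SE 0.14). The pLOC-MALINC1 pair was therefore the highest group in MCF10A and the lowest of all 4 in DCIS.COM, while both pLOC-empty pairs lay between 5.58 and 7.32 CPM. The difference between the responses was -2.42 (SE 0.20). Beside the lower levels of *HPGD*, *PTGES* and *ALOX5AP* with pLOC-MALINC1 in DCIS.COM, the endothelial marker *PECAM1* and the fibroblast marker *COL1A1* were lower there too, as given above, and the 3 leukocyte markers had a higher mean. Of the 9 epithelial markers, 5 had a lower mean there (*KRT14*, *KRT17*, *KRT18*, *TP63* and *KRT8*) and 4 a higher one (*KRT5*, *ITGA6*, *CDH1* and *EPCAM*). Their part in these results was not tested.

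Between the responses of the lines, 2 of 8 members (*PTGES* and *HPGD*) were past the thresholds, both lower in DCIS.COM, where 3.98% of all genes were called higher and 5.22% lower. The median difference of the members was -0.56, against -0.01 over all genes. *PTGS1* was not past the thresholds at -1.06 (SE 0.30), and it was past them without DCIS.COM pLOC-MALINC1 replicate 1 (-1.27), with 0.5 or 1 CPM added (-1.11 and -1.05) and among genes with a mean of 1 CPM or more (-1.06). In DCIS.COM *PTGS1* lay under 0.5 CPM in every library, at 6 to 17 reads, and added CPM shrinks its response there. Its difference and these passes are therefore no test. With no fold threshold and an adjusted p under 0.05, 6 members passed, where 49.8% of all genes did. The epithelial markers also moved with the vector, from a sum of 20619 and 20868 CPM to 28062 and 28804 CPM in MCF10A and from 7790 and 7982 CPM to 8159 and 8515 CPM in DCIS.COM. Within that sum the markers did not move alike. The mean of *TP63* went from 4.92 to 40.9 CPM in MCF10A and from 56.6 to 49.6 CPM in DCIS.COM. That of *KRT14* went from 1452 to 2922 CPM and from 33.0 to 21.9 CPM, and *KRT17* and *KRT18* turned as well. The pairs of *KRT8* overlapped in MCF10A (means of 813 and 816 CPM), and its mean went from 1852 to 1805 CPM in DCIS.COM. *KRT5* was higher in both lines, from 6149 to 8727 CPM in MCF10A and from 1069 to 1388 CPM in DCIS.COM. *ITGA6*, *CDH1* and *EPCAM* also had higher means in both lines. *COL1A1* was lower with pLOC-MALINC1 in both lines, by over 2-fold in MCF10A. The part of these markers in the responses of the members was not tested.

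The comparison of DCIS.COM with MCF10A asks how the pathway differs between the pre-invasive line and the normal-like line. With pLOC-empty, 4 of 8 members (*PTGES*, *PTGS2*, *PTGS1* and *ALOX5AP*) were past the thresholds, all lower in DCIS.COM, where 15.6% of all genes were called higher and 13.0% lower. With pLOC-MALINC1, *HPGD* joined them, which made 5 of 8, where 14.4% of all genes were called higher and 12.2% lower. The median log2 fold change of the members was -1.43 and -2.31, against 0.03 and 0.01 over all genes. At an adjusted p under 0.05 with no fold threshold, 7 members passed in each, where 81.2% and 80.4% of all genes did. *PTGS1* and *ALOX5AP* lay under 0.5 CPM in every DCIS.COM library and were tested only through their level in MCF10A. Their part in these counts and medians is therefore no test, and nothing is read from them. These comparisons share their libraries with the vector comparisons above and are set beside them only as values.

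*PTGES* showed the largest of these differences, with log2 fold changes of -4.40 (SE 0.04) and -6.53 (SE 0.04). *PTGS2* was lower in DCIS.COM by 8.45-fold with pLOC-empty and by 7.71-fold with pLOC-MALINC1, at log2 fold changes of -3.08 and -2.95 (SE 0.12 each). *PTGS1* had -2.75 and -3.81 (SE 0.21 each), on 6 to 17 reads in each DCIS.COM library. Its scaled reads were 8.09-fold fewer there with pLOC-empty (95% counting interval 4.57 to 15.6) and 15.9-fold fewer with pLOC-MALINC1 (10.9 to 24.1). *ALOX5AP* had 8.08-fold fewer scaled reads in DCIS.COM with pLOC-empty (95% counting interval 4.46 to 16.1) and 10.7-fold fewer with pLOC-MALINC1 (3.84 to 41.1). *HPGD* did not follow them with pLOC-empty, at 0.23 (SE 0.14), and was 4.54-fold lower in DCIS.COM with pLOC-MALINC1.

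The other members differed less between the lines. *PTGES2* was higher in DCIS.COM, by 0.69 (SE 0.05) with pLOC-empty and 0.14 (SE 0.05) with pLOC-MALINC1. *PTGES3* was lower, by -0.14 and -0.39 (SE 0.04 each). *PLA2G4A* was higher by 0.52 (SE 0.08) with pLOC-empty and overlapped between the lines with pLOC-MALINC1 at -0.05, a value that turned to 0.13 when the reads of *RN7SL1* and *RN7SL2* were left out of the library size and to 0.15 when libraries were scaled by total reads alone.

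**Figure D3:**
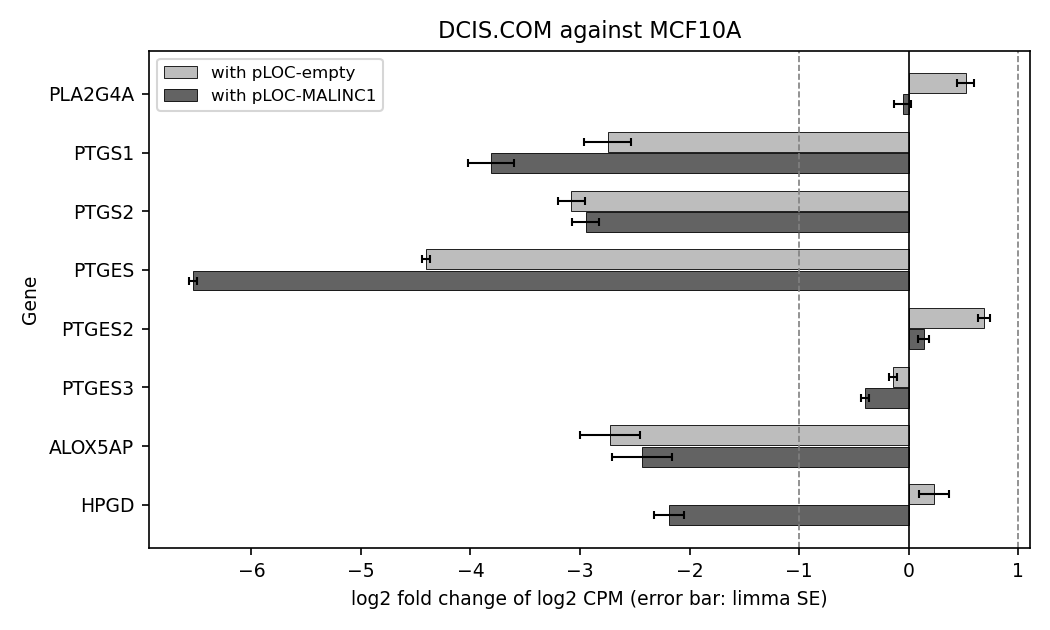
Log2 fold change of DCIS.COM over MCF10A (bars) for each of the 8 genes, with pLOC-empty (light) and with pLOC-MALINC1 (dark), limma's SE as error bars and dashed lines at 2-fold. *PTGES*, *PTGS2*, *PTGS1* and *ALOX5AP* lie at -2.44 or lower in both, and *HPGD* is on the lower side by over 2-fold with pLOC-MALINC1 alone.

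The wider pathway was described from a list of 73 other genes, of which 43 were measured, and here the adjusted p-values are those of limma over all 13842 genes. In MCF10A, 2 of the 43 were called higher (4.65%) and 4 lower (9.30%) with pLOC-MALINC1, where 2.99% and 2.51% of all genes were. In DCIS.COM 1 was called higher (2.33%) and 3 lower (6.98%), where 1.44% and 3.08% of all genes were. A single call in each line rests on a group that lay under 0.5 CPM in both libraries, *CYP2J2* in MCF10A and *PTGFR* in DCIS.COM. The median log2 fold change of the list was -0.28 in MCF10A and -0.07 in DCIS.COM. Of the called genes in MCF10A, a receptor changed most. *PTGFR*, the receptor of prostaglandin F2α, fell in MCF10A from 10.1 and 9.52 CPM to 1.45 and 1.32 CPM, a log2 fold change of -2.77 (SE 0.33, adjusted p = 1.89e-05). In DCIS.COM it had 0.373 and 0.812 CPM with pLOC-empty and 0.262 and 0.118 CPM with pLOC-MALINC1, or 8 and 17 reads against 9 and 4 reads (log2 fold change -1.32, SE 0.33). Its call there was lost in 12 of 21 alternatives, among them without DCIS.COM pLOC-empty replicate 2 (-0.82) and without DCIS.COM pLOC-MALINC1 replicate 2 (-0.91), and also without any single MCF10A library, where its value stays -1.32.

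*PTGER2* and *PTGER4* are the receptors of prostaglandin E2 that raise cAMP. *PTGER2* fell in MCF10A from 6.69 and 6.51 CPM to 1.95 and 2.38 CPM (log2 fold change -1.58, SE 0.25, adjusted p = 0.000182), and in DCIS.COM it had no read with pLOC-empty and 1 read in each library with pLOC-MALINC1. *PTGER4* rose in DCIS.COM from 2.66 and 3.82 CPM to 8.18 and 8.75 CPM (log2 fold change 1.39, SE 0.18, adjusted p = 4.54e-05), while in MCF10A its log2 fold change was 0.24 (adjusted p = 0.283). The difference between the responses was 1.15 (adjusted p = 0.00232) for *PTGER4*, and that call was lost without any one of MCF10A pLOC-empty replicate 2, MCF10A pLOC-MALINC1 replicate 1, DCIS.COM pLOC-empty replicate 1 and DCIS.COM pLOC-MALINC1 replicate 2, at 0.90 to 1.12.

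Of the 9 genes of arachidonic acid release, 1 fell in DCIS.COM. *PLAAT3*, a phospholipase A and acyltransferase, went from 24.7 and 24.2 CPM to 7.92 and 8.54 CPM (log2 fold change -1.56, SE 0.07, adjusted p = 4.65e-09). In MCF10A its log2 fold change was -0.34 (adjusted p = 0.00148), under 2-fold, and the responses differed by -1.23 (adjusted p = 7.64e-07). Of the 5 other prostanoid synthases, *AKR1B1*, an aldose reductase that also makes prostaglandin F2α, fell in DCIS.COM from 126 and 116 CPM to 57.4 and 57.5 CPM (log2 fold change -1.07, SE 0.05, adjusted p = 5.17e-09). In MCF10A it had -0.49 (adjusted p = 3.87e-06), under 2-fold, and in DCIS.COM it was -0.96 and under 2-fold when libraries were scaled by total reads alone.

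Among the 11 genes of transport and breakdown, 2 were called higher and 2 lower in MCF10A. *ABCC4*, an exporter of prostaglandins, rose from 2.34 and 3.50 CPM to 6.24 and 5.48 CPM (log2 fold change 1.01, SE 0.15, adjusted p = 0.000101). *SLCO2A1*, the prostaglandin uptake carrier, fell from 2.62 and 2.39 CPM to 1.03 and 0.869 CPM (log2 fold change -1.34, SE 0.36, adjusted p = 0.00742). *CYP4F12*, an omega-hydroxylase of fatty acids, fell from 8.86 and 8.24 CPM to 3.34 and 3.14 CPM (log2 fold change -1.38, SE 0.37, adjusted p = 0.00775), and near-identical copies of the CYP4F family can share reads. *CYP2J2*, an epoxygenase, had 1 read in each pLOC-empty library and 7 and 4 reads with pLOC-MALINC1, a ratio of 4.55 with a 95% counting interval of 0.993 to 42.2, which includes no change. It was among the genes tested only through its level in DCIS.COM (2.39 to 3.29 CPM), so its call is no sign of a rise.

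These 4 calls in MCF10A also ended under other choices. The call of *ABCC4* was lost without pLOC-empty replicate 1 (0.73) and without pLOC-MALINC1 replicate 1 (0.92), that of *CYP2J2* without the same libraries (1.07 and 1.01), and those of *SLCO2A1* and *CYP4F12* without any single MCF10A library (-1.45 to -1.22 and -1.43 to -1.33). The call of *ABCC4* ended as well with 0.5 or 1 CPM added (0.91 and 0.82), without the reads of *RN7SL1* and *RN7SL2* (0.97), with each line fitted alone (1.01) and with total reads alone (0.998). That of *CYP4F12* ended under quantile normalization (-1.25) and in limma without trend (-1.38), and that of *SLCO2A1* with 1 CPM added (-0.85) and without trend (-1.34). That of *CYP2J2* ended with 0.5 or 1 CPM added (0.32 and 0.17) and with voom weights (1.70). Without MCF10A pLOC-empty replicate 1 the count over the list was 2 instead of 6, and without MCF10A pLOC-MALINC1 replicate 1 it was 3. In DCIS.COM none of the 11 was called by limma or with voom weights, and *ABCC4* had 0.54 there (adjusted p = 0.00922). An unadjusted p under 0.05 was reached by 6 of them, where 46.1% of all genes passed even at an adjusted p under 0.05.

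No gene was called by limma or with voom weights in MCF10A among the 9 of arachidonic acid release, the 7 of arachidonate supply, the 6 lipoxygenases and leukotriene synthases or the 5 other prostanoid synthases, with 9, 6, 4 and 3 of them at an unadjusted p under 0.05. The same held in DCIS.COM for arachidonate supply and for the lipoxygenases, with 7 and 2 at an unadjusted p under 0.05. Of all genes, 53.0% in MCF10A and 46.1% in DCIS.COM passed even at an adjusted p under 0.05, so nothing is read from these counts.

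**Figure D4:**
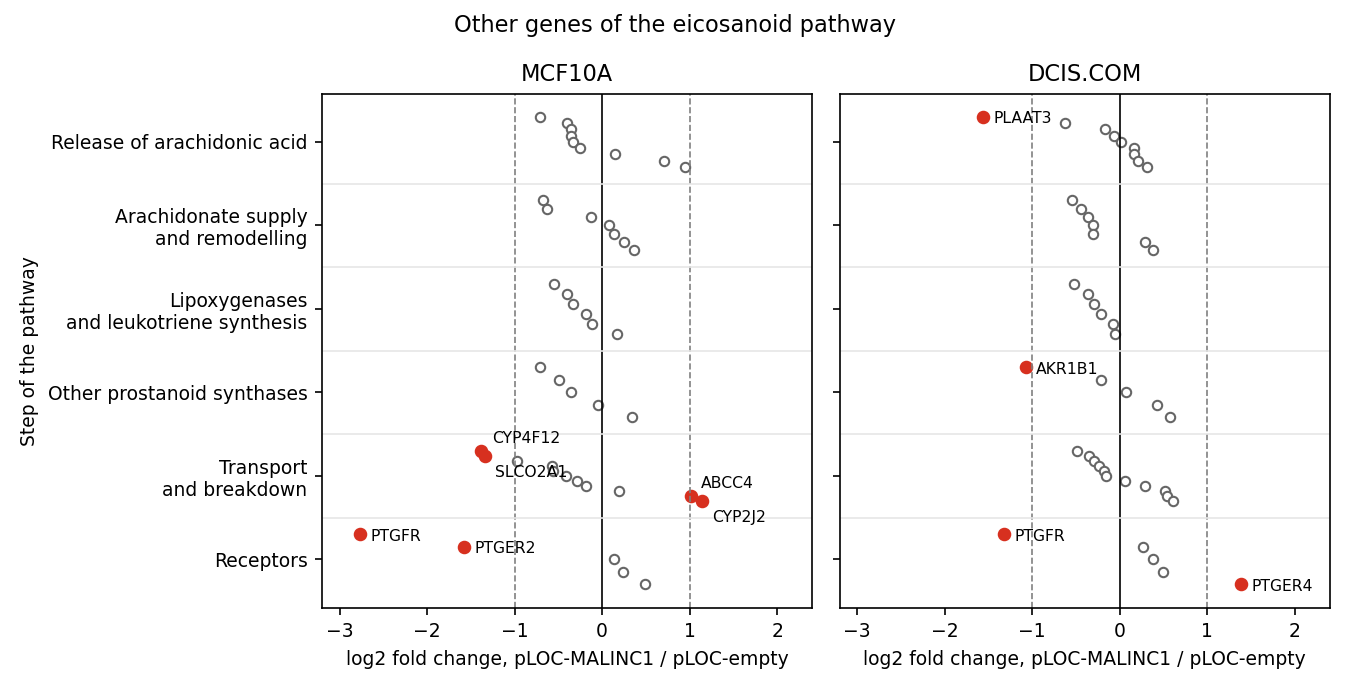
Log2 fold change of pLOC-MALINC1 over pLOC-empty for 43 other genes of the pathway, by step, in MCF10A (left) and DCIS.COM (right), with 1 point per gene, called genes filled and named and dashed lines at 2-fold. *PTGFR* is filled in both panels, and the other called genes differ between the panels.

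The difference between the responses was called for 6 of the 43 genes, 4 higher (9.30%) and 2 lower (4.65%) in DCIS.COM, where 3.98% and 5.22% of all genes were. For 2 of the 6, *PTGER2* and *CYP2J2*, a group lay under 0.5 CPM in both libraries. *PTGER2* has at most 1 read in any DCIS.COM library and could not have been seen to fall there, and *CYP2J2* has 1 read in each MCF10A pLOC-empty library, so the fitted differences of 2.08 and -1.30 come from the prior count and are no test. Besides *PTGER4* and *PLAAT3*, the others were *CYP4F3* (1.58, adjusted p = 0.000411) and *EPHX2* (1.07, adjusted p = 0.000197). *CYP4F3*, which inactivates leukotriene B4, stood in MCF10A at 14.4 and 13.6 CPM with pLOC-empty and 7.72 and 6.57 CPM with pLOC-MALINC1, and in DCIS.COM at 0.793 and 0.525 CPM and 1.11 and 0.946 CPM. *EPHX2*, the soluble epoxide hydrolase, pointed to opposite sides, at -0.56 in MCF10A (adjusted p = 0.0017) against 0.52 for DCIS.COM (adjusted p = 0.00329), both under 2-fold. Its call was lost without MCF10A pLOC-MALINC1 replicate 2 (0.96) and without DCIS.COM pLOC-empty replicate 1 (0.99).

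Between the lines, 16 of the 43 genes were called with pLOC-empty, 6 higher (14.0%) and 10 lower (23.3%) in DCIS.COM, where 15.6% and 13.0% of all genes were. With pLOC-MALINC1 20 were called, 9 higher (20.9%) and 11 lower (25.6%), where 14.4% and 12.2% of all genes were. In each comparison 8 of these genes lay under 0.5 CPM in both libraries of a group and were tested through the other, so that they had to differ, and no p is given for those named here. The median log2 fold change of the list was -0.21 and -0.11. *ALOX15B*, a lipoxygenase that oxidizes arachidonic acid, was read at 44.7 to 69.0 CPM in MCF10A and with 1 or 2 reads in each DCIS.COM library. With pLOC-empty its scaled reads were 1443-fold lower in DCIS.COM, with a 95% counting interval of 399 to 11920. *PTGER2* was at least 46.6-fold lower in DCIS.COM with pLOC-empty, taking 3 reads in each of the libraries at 0 as the floor, and 72.7-fold lower with pLOC-MALINC1 (counting interval 19.7 to 606).

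*PTGFR* and the CYP4F genes were lower in DCIS.COM as well. With pLOC-empty the log2 fold change was -4.29 for *CYP4F3* (SE 0.19, adjusted p = 3.15e-10). *PTGFR*, with 8 and 17 reads in DCIS.COM, had -3.98 (SE 0.33), and *CYP4F12*, with 2 and 7 reads there, had 40.4-fold fewer scaled reads (counting interval 21.1 to 89.0). *ABCC4* went the other way, at 22.7 CPM in both pLOC-empty libraries of DCIS.COM against 2.34 and 3.50 CPM in MCF10A (log2 fold change 2.95, SE 0.15, adjusted p = 9.21e-10) and at 2.48 with pLOC-MALINC1 (adjusted p = 5.84e-09).

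For the members past the thresholds in a vector comparison, the genes with the nearest profile were sought among 12918 other genes with a mean of 1 CPM or more (12919 for *ALOX5AP*, whose own mean is lower), by the Euclidean distance of log2 CPM over the 8 libraries after centring each gene on its mean. *HPGD* had the closest neighbours, *SAT1* at 0.382, *SLC6A14* at 0.504 and *ADAM19* at 0.571, where the median distance to all genes was 2.44. *PTGES* lay nearest to *ZNF680* (0.871), *SULT1E1* (0.953) and *CRAT* (0.982), with a median of 8.12. *PTGS1* lay nearest to *SPRR2D* (0.875), *CA2* (0.913) and *RAET1G* (0.962), with a median of 4.91. *ALOX5AP* lay nearest to *NEURL1B* (0.746), *ABCG1* (0.872) and *FAXDC2* (0.976), with a median of 4.38. These distances rank likeness over 8 libraries that share 4 groups, and for *ALOX5AP* they also carry the counting error of its few reads.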

How the data were processed

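RNA-seq of 8 libraries was analysed from the deposited table of log2 CPM, which the authors made from 76 nt paired-end reads (ScriptSeq v2 libraries, HiSeq2000) aligned to hg19 with Rsubread, counted on genes with featureCounts and normalized with edgeR. The sources used here do not give the strand setting, the filter on low values or the tool versions. Reads were recovered from the log2 values with a prior count of 2, all of them whole within 0.01 reads, and levels are given as CPM without the prior. The 346 rows without a symbol stayed in the fit.

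A linear model was fitted to these log2 values in limma (version 3.58.1, R 4.3.3, eBayes with trend, Benjamini-Hochberg adjustment over 13842 genes, two-sided), with a mean for each of 4 groups, which left 4 residual and 7.98 prior degrees of freedom. Genes at 0.5 CPM or more in 2 or more libraries were tested, which kept all. Log2 fold changes keep the prior count and understate those of low genes. For genes with few reads the ratio of scaled reads is given with an exact 95% interval, and a group at 0 is set to a floor of 3 reads per library; both cover counting error only. The steps were first tested on simulated data in which only genes with many reads were changed. That test did not cover changes in genes with few reads.

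The 8 members, the wider list and the marker lists were chosen with earlier results of these data known. Of the wider list, genes called in a vector comparison are named, and between the lines the 6 called genes with the largest mean change at 5 CPM or more; genes named for the difference between responses were added after their values were seen. For each member past the thresholds in a vector comparison the 3 nearest profiles are named. Exon lengths and positions come from GENCODE v44lift37, and promoters from the RefSeq table. Alternatives changed the pseudocount, filter, scaling, model and thresholds, and left out each library. Further steps used Python 3.11.15 with pandas 2.3.3, scipy 1.17.1 and matplotlib 3.10.9.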

Additional observations from a re-analysis of the deposited data

Results flagged for a closer look

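For *HPGD*, *PLA2G4A*, *PTGES2* and *PTGES3* the pLOC-MALINC1 libraries lay above the pLOC-empty libraries in MCF10A and below them in DCIS.COM. The share of all genes that turn in this way was not computed, so nothing is read from their number. The response in DCIS.COM minus that in MCF10A was -2.42 on the log2 scale for *HPGD*, -0.58 for *PLA2G4A*, -0.55 for *PTGES2* and -0.25 for *PTGES3*. Of these, *HPGD* was past limma's thresholds. Since the genes were chosen with results known, no p is given for them and the difference itself was not tested on independent values. The value of *PTGES3* in DCIS.COM changed sign when libraries were scaled by total reads alone. *PTGES* was lower in both lines, with a difference of -2.13 between the responses, which is also a description.

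Among the other pathway genes the difference between the responses passed limma's test for *CYP4F3* (1.58), *PTGER4* (1.15), *EPHX2* (1.07) and *PLAAT3* (-1.23). The call was lost in 6 of 20 alternatives for *PTGER4* and in 3 of 20 for *EPHX2*, 1 CPM added being among them for both (0.98 and 0.95). *PTGER2* (2.08) had 1 read or fewer in each DCIS.COM library and *CYP2J2* (-1.30) had 1 read in each MCF10A pLOC-empty library, so their values come from the prior count and their calls are no test. With 2 libraries per group, no library could be set apart from its group.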

How the results depend on the processing

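With 1 CPM added before the logarithm, 1 member was past the thresholds in MCF10A and 3 other pathway genes were called there, in place of 2 and 6, the member lost being *ALOX5AP* at -0.99. In DCIS.COM it was -0.49 and -0.28 with 0.5 and 1 CPM added, and no longer past the thresholds. With only genes at a mean of 1 CPM or more, 1 member was past them in MCF10A, as *ALOX5AP* was left out by that filter. At an adjusted p under 0.05 with no fold threshold, the members passing were 8 of 8 in MCF10A and 5 in DCIS.COM. Between the lines 7 passed with pLOC-empty, and 6 passed for the difference between the responses. Of the 43 other pathway genes, 32 were called in MCF10A, 24 in DCIS.COM and 26 for the difference. Between the lines 36 were called with pLOC-empty and 34 with pLOC-MALINC1. Of all genes, 53.0%, 46.1% and 49.8% were called in MCF10A, in DCIS.COM and for the difference. The all-gene shares between the lines were 81.2% with pLOC-empty and 80.4% with pLOC-MALINC1. Leaving out 1 library at a time, with the lone library of the pair assumed to vary like the other groups, gave 2 to 6 other pathway genes in MCF10A, 3 to 4 in DCIS.COM, 15 to 17 and 19 to 20 between the lines and 4 to 7 for the difference, and 2 to 3 members in DCIS.COM and for the difference. The member lost in DCIS.COM was *ALOX5AP*, without pLOC-empty replicate 2, and the one gained for the difference was *PTGS1*. Both genes rest on few reads in DCIS.COM.

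In DCIS.COM, values that were not called changed sign for *CYP2J2* (0.0029 without pLOC-empty replicate 2), *CYP4F12* (0.35 without pLOC-empty replicate 2 and 0.11 without pLOC-MALINC1 replicate 1) and *SLCO2A1* (-0.31 without pLOC-empty replicate 1, -0.37 without pLOC-MALINC1 replicate 1 and -0.32 with voom weights), and over all libraries left out in turn *CYP4F12* ranged from -0.95 to 0.35, *SLCO2A1* from -0.37 to 0.49 and *CYP2J2* from -0.32 to 0.0029. No member past the thresholds changed sign in any alternative that was run. Scaling by total reads alone, added after the data were seen, moved the all-gene median to 0.13 in DCIS.COM and 0.20 between the lines with pLOC-MALINC1, and the genes called higher and lower to 281 and 367 (from 200 and 427), 2548 and 1396 (from 1999 and 1687) and, for the difference, 718 and 610 (from 551 and 722). The library size without *RN7SL1* and *RN7SL2* moved the all-gene median between the lines to 0.14 and 0.18.

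With the replicate number as a block, 5 in place of 6 other pathway genes were called for the difference between the responses, and every other count of members and pathway genes was as without it. Same-numbered libraries did not deviate together (correlations of -0.0666 to 0.0382 between groups), so the replicate numbers give no pairing. The count tests edgeR and DESeq2 were planned and not run, since the deposited unit is log2 CPM, and limma with voom weights on the recovered reads was added after the data were seen in their place. At this depth a level under about 0.1 CPM rests on 3 reads or fewer.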
